A study of Rattus norvegicus with 10 samples.

Results

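The genes described here are 40 short gene models without introns on rat chromosome 17, in the region that holds the main cluster of replication histone genes. They were chosen by position, structure and detection: a single exon, every base between positions 41700000 and 44900000, and 10 or more counts in at least 2 of 10 libraries. Of the 32623 gene rows in the count files, 114 lay in that window, 70 of these had a single exon, and 40 met the count rule. They are numbered 1 to 40 by position and called members below. The counts that chose them are the counts analysed, so their detection is not a finding.

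Replication histone genes are transcribed mainly while a cell copies its DNA, and they supply the proteins that package the new strands. Histones H2A, H2B, H3 and H4 form the core of the nucleosome, and linker histone H1 binds where the DNA enters and leaves it. These genes lack introns, lie in clusters of many near-identical copies, and make messages that end in a stem-loop rather than a poly(A) tail. The gastric mucosa renews its surface cells continuously from dividing progenitors, so such messages are a usual part of its RNA.

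The study took gastric mucosa from Sprague Dawley rats, with a cell type label of epithelial cells, in 5 groups of 2 libraries. Control labels name no treatment. Indomethacin was given by mouth at 48 mg/kg, aspirin at 400 mg/kg and diclofenac at 75 mg/kg, with tissue taken at 4 h. In the fifth group honokiol, a plant biphenol given here into the abdominal cavity at 40 mg/kg, preceded the same dose of indomethacin by 30 min, and these libraries are called the honokiol group. Their time label is 0.5 h, against 4 h for the other drug groups. It was read as the lead of honokiol, with tissue taken at 4 h, and this reading could not be checked. Indomethacin, aspirin and diclofenac are non-steroidal anti-inflammatory drugs, which block cyclooxygenases and can injure the stomach lining. The series title names the mitochondrial deacetylase sirtuin 3 as the study's subject. Ribosomal RNA was depleted and no poly(A) selection is mentioned, so messages without a tail could be captured.

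Library totals ran from 23892226 to 44977459 counts, and 19478 to 20722 rows had counts. No label says that the replicates came from separate animals, so p-values measure only the spread between these libraries. Y-chromosome counts were summed over 7 rows with 50 or more counts in total and no count in at least 1 library. Y rows with counts in every library were thus left out. The 7 rows held 2733 to 4438 counts in control 1, indomethacin 1 and both honokiol libraries, and at most 47 in each of the other 6. The 2 control libraries therefore differed in this respect, while the aspirin and diclofenac libraries were all of the kind with 47 or fewer, called without Y counts below. Mitochondrial rows took 35.1% and 36.2% of counts in control, 32.4% and 21.7% with indomethacin, 31.5% and 35.4% in the honokiol group, and 21.1% to 23.8% in the aspirin and diclofenac libraries. In bulk tissue, fewer cells of a type and less RNA per cell cannot be told apart.

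None of the 32623 identifiers could be matched to a gene name, so the histone label rests on position and length and could not be checked by name. Exon length gave the only classes available. In mammals the coding sequence of the core histones, stop codon included, is as a rule 312 nt for H4, 381 nt for H2B, 393 nt for H2A and 411 nt for H3, while that of H1 is longer and varies. Of the 40 members, 6 were 312 nt long, 10 were 411 nt, 7 were 393 nt, 7 were 381 to 387 nt, and 5 were 639 to 744 nt. These 35 are called H4-, H3-, H2A-, H2B- and H1-length below, which describes their size and is not an identification. Member 26, at 387 nt, and member 38, at 382 nt, were placed with the H2B-length members although they are not exactly 381 nt. Of the 35 lengths, 34 were multiples of 3. The values are thus counts over coding length and would miss reads confined to the untranslated ends. The other 5 members, of 106, 138, 138, 146 and 1625 nt, fit none of these lengths. The label is therefore carried by 35 of 40 members.

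The members lay in 4 stretches. Member 1 stood alone at chr17:42324579-42324684. Members 2 to 21 filled 207.4 kb from 43614101 to 43821536, members 22 to 26 lay between 44418972 and 44528511, and members 27 to 40 filled 103.4 kb from 44737950 to 44841382. There were 19 members on the plus strand and 21 on the minus strand. The count rule was met by a narrow margin in member 20 (146 nt) and member 28 (393 nt), each with 14 counts in its second-highest library, and in member 26 with 36. Just outside it, a 745-nt row at chr17:43675190-43675934 had 5 counts in its second-highest library and a 129-nt row at position 43932885 had 4. Of the 30 single-exon rows left out, 19 had no count in any library. At least 10 counts in every library were found for 36 members, and the other 4 were members 20, 26, 28 and 36.

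Measured levels differed widely between the length classes. Values are counts scaled to a common library total with edgeR's TMM factors (CPM), and levels of different genes are compared per kilobase. In the control libraries the mean level was 76.3 CPM per kb over the H4-length members, 51.8 over the H1-length, 17.3 over the H3-length, 10.3 over the H2B-length and 4.44 over the H2A-length members. The highest single member was number 21, of H4 length, at 164 CPM per kb, followed by the H1-length member 9 at 113 and the H4-length member 13 at 95.4. Near-identical copies of 1 class can share reads, and how the counting treated such reads is not given. The order of single members, the gaps between classes and the class shares given below are therefore uncertain. All H2A-length members but number 24 also overlap an antisense row without counts, and the part of this in their low level was not tested.

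Together the members took 562 and 332 CPM in the control libraries. The sum was 404 and 434 CPM with indomethacin, 360 and 371 in the honokiol group, 290 and 259 with aspirin, and 209 and 277 with diclofenac. Control 1 stood far above every other library, and control 2 lay above the aspirin and diclofenac libraries and below the other 4. H1-length members supplied 37.4% to 44.7% of the sum in a library, H4-length 27.9% to 36.5%, H3-length 11.6% to 17.1%, H2B-length 2.75% to 6.87% and H2A-length 1.58% to 3.91%. No p is given for these sums, because the members were chosen with results known.

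**Figure D1:**
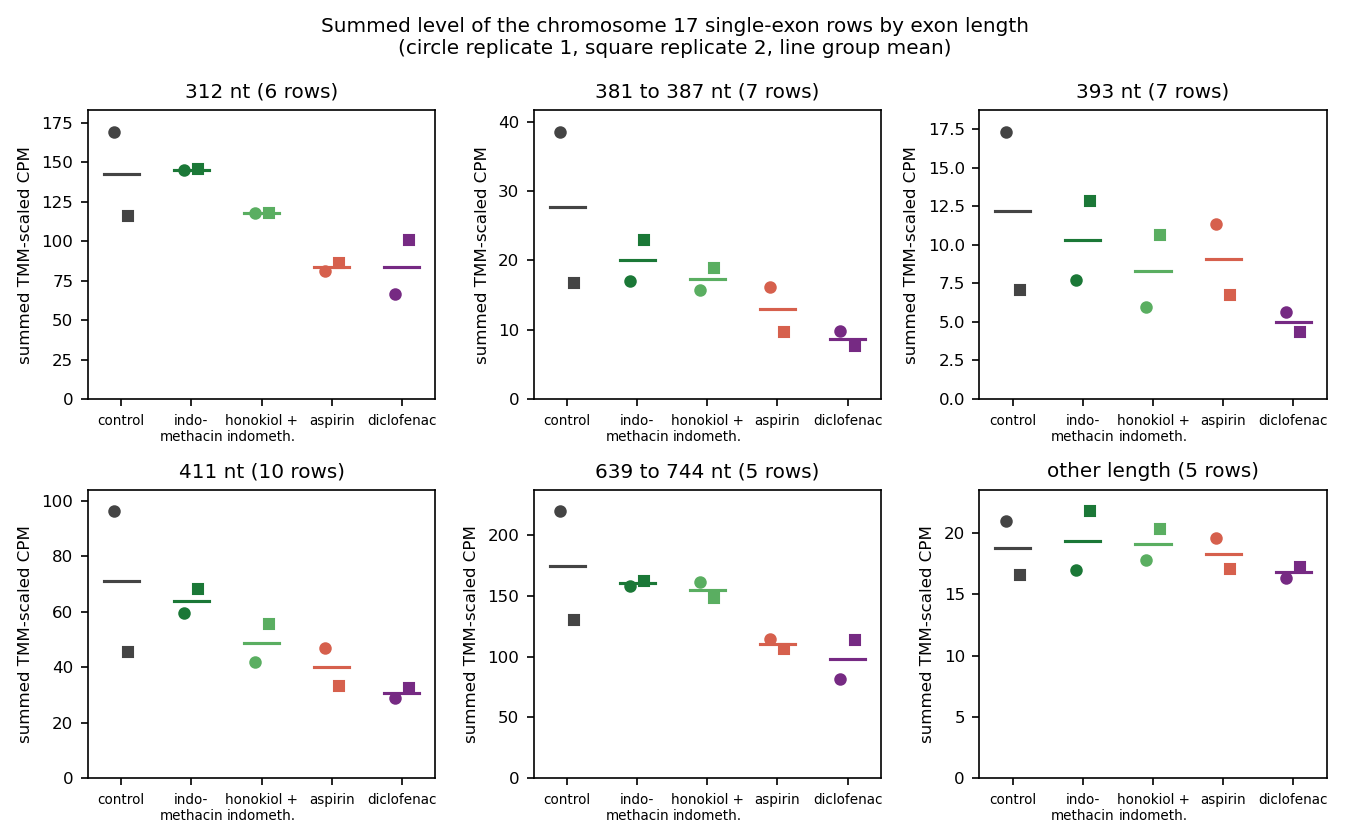
Summed TMM-scaled CPM of the members of each exon length class in the 10 libraries. Circles are replicate 1, squares replicate 2 and lines group means, and each axis starts at 0. Control replicate 1 is the highest library in the 5 histone-length classes, and a diclofenac library is the lowest.

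The 2 controls differed more over these members than over genes at large. Of the 40 members, 39 had a higher level in control 1 than in control 2, and the median ratio was 2.09 against 1.03 over the 16346 genes tested. The ratio was 1.5 or more in 29 members, against 16.3% of the genes tested. Control 1 was the highest of the 10 libraries for 37 members, where 20.4% of tested genes had it highest. A diclofenac library was the lowest for 34 members, where 17% of tested genes had one lowest. Median ratios of replicate 1 to replicate 2 over the members were 0.892 with indomethacin, 0.803 in the honokiol group, 1.5 with aspirin and 1.12 with diclofenac. Results against control therefore rest partly on control 1, and values without that library are given below for each set of calls and for the 16 members chosen by level, calls or direction.

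**Figure D2:**
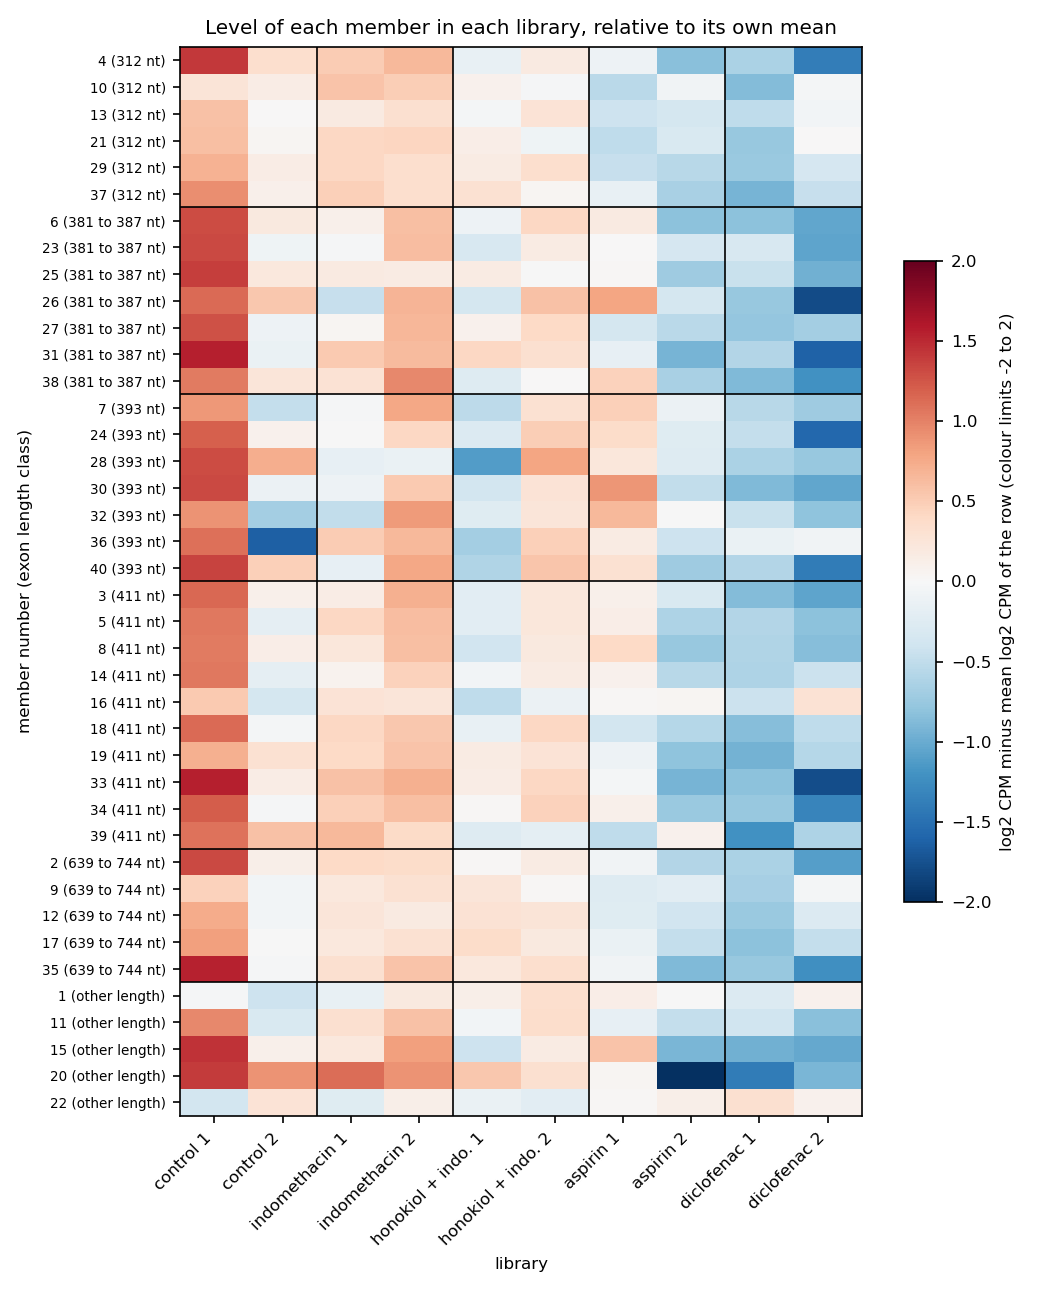
Log2 CPM of each member in each library minus the member's mean log2 CPM over the 10 libraries, by exon length class, with colours limited at -2 and 2. The control 1 column is red for nearly every member and the diclofenac columns are mostly blue, while members 1 and 22 show neither.

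With diclofenac, 17 of the 40 members fell and none rose (edgeR's quasi-likelihood test, Benjamini-Hochberg adjusted p under 0.05 over the genes tested). Among the 16346 genes tested, 3.11% were called lower and 4.76% higher in this comparison. No member was called higher by DESeq2 either. An unadjusted p under 0.05 was found for 33 members, each lower, against 13.4% of tested genes. By class, calls were made for 3 of 6 H4-length, 6 of 10 H3-length, 0 of 7 H2A-length, 5 of 7 H2B-length and 3 of 5 H1-length members, and for 0 of 5 of other length. The median log2 fold change of the members was -1.40, against -0.01 over the genes tested, and 38 of 40 lay below 0. Both diclofenac libraries were below both controls in 34 members, against 28.3% of tested genes. Member 20, which is part of these tallies and of those below, met the count rule only in control and indomethacin libraries. The H2A-length members had a median of -1.66 with no call, at standard errors of 0.47 to 0.67 and the lowest counts of the 5 classes, so the missing calls there do not show a smaller change.

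These calls depended on which libraries entered the test. Without control 1 the same test called 0 members, with 17 at an unadjusted p under 0.05, a median of -0.77 and 36 of 40 below 0. It called 27 without control 2, 9 without indomethacin 1, 3 without diclofenac 1 and 0 without diclofenac 2. With a term for the presence of Y counts it called 0 members, with 24 at an unadjusted p under 0.05 and a median of -1.21. In that fit 0.63% of tested genes were called lower, and 3114 of 16346 had an unadjusted p under 0.05 in either direction. Fewer genes of any kind were also called lower there and without control 1, indomethacin 1 or either diclofenac library. The lost calls are therefore not particular to the members. Both diclofenac libraries lay below control 2, the control without Y counts, in 34 members, against 39.8% of tested genes.

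With aspirin, 7 of the 40 members fell and none rose by the same test, where 8.26% of tested genes were called lower and 9.5% higher. DESeq2 called none higher. An unadjusted p under 0.05 was found for 20 members, each lower, against 18.1% of tested genes. These 7 were also among the 17 called with diclofenac, in a comparison that shares the same controls. They were 3 H4-length, 2 H3-length, 1 H2B-length and 1 H1-length members. The median log2 fold change was -0.80, against -0.00 over the genes tested, and 37 of 40 lay below 0. Both aspirin libraries were below both controls in 22 members, against 30.2% of tested genes.

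The aspirin count also depended on the libraries. It was 0 without control 1, with 2 members at an unadjusted p under 0.05 and a median of -0.24. It was 18 without control 2, 0 without aspirin 1 and 1 without aspirin 2. Leaving out indomethacin 1, indomethacin 2, honokiol 1, honokiol 2 or diclofenac 1, which belong to neither group compared, gave 2, 2, 3, 2 and 2 calls. With the Y term it was 0, with 5 at an unadjusted p under 0.05. In that fit 1.22% of tested genes were called lower, and 4360 of 16346 had an unadjusted p under 0.05 in either direction. Both there and without control 1, a larger share of tested genes than of members had such a p. Fewer genes of any kind were also called lower there and without control 1 or aspirin 1, so the lost calls are not particular to the members. Both aspirin libraries lay below control 2 in 23 members, also against 39.8% of tested genes. The mitochondrial share and the Y counts given above also moved with these groups, and their part in the lower values was not tested beyond the fits stated here.

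**Figure D3:**
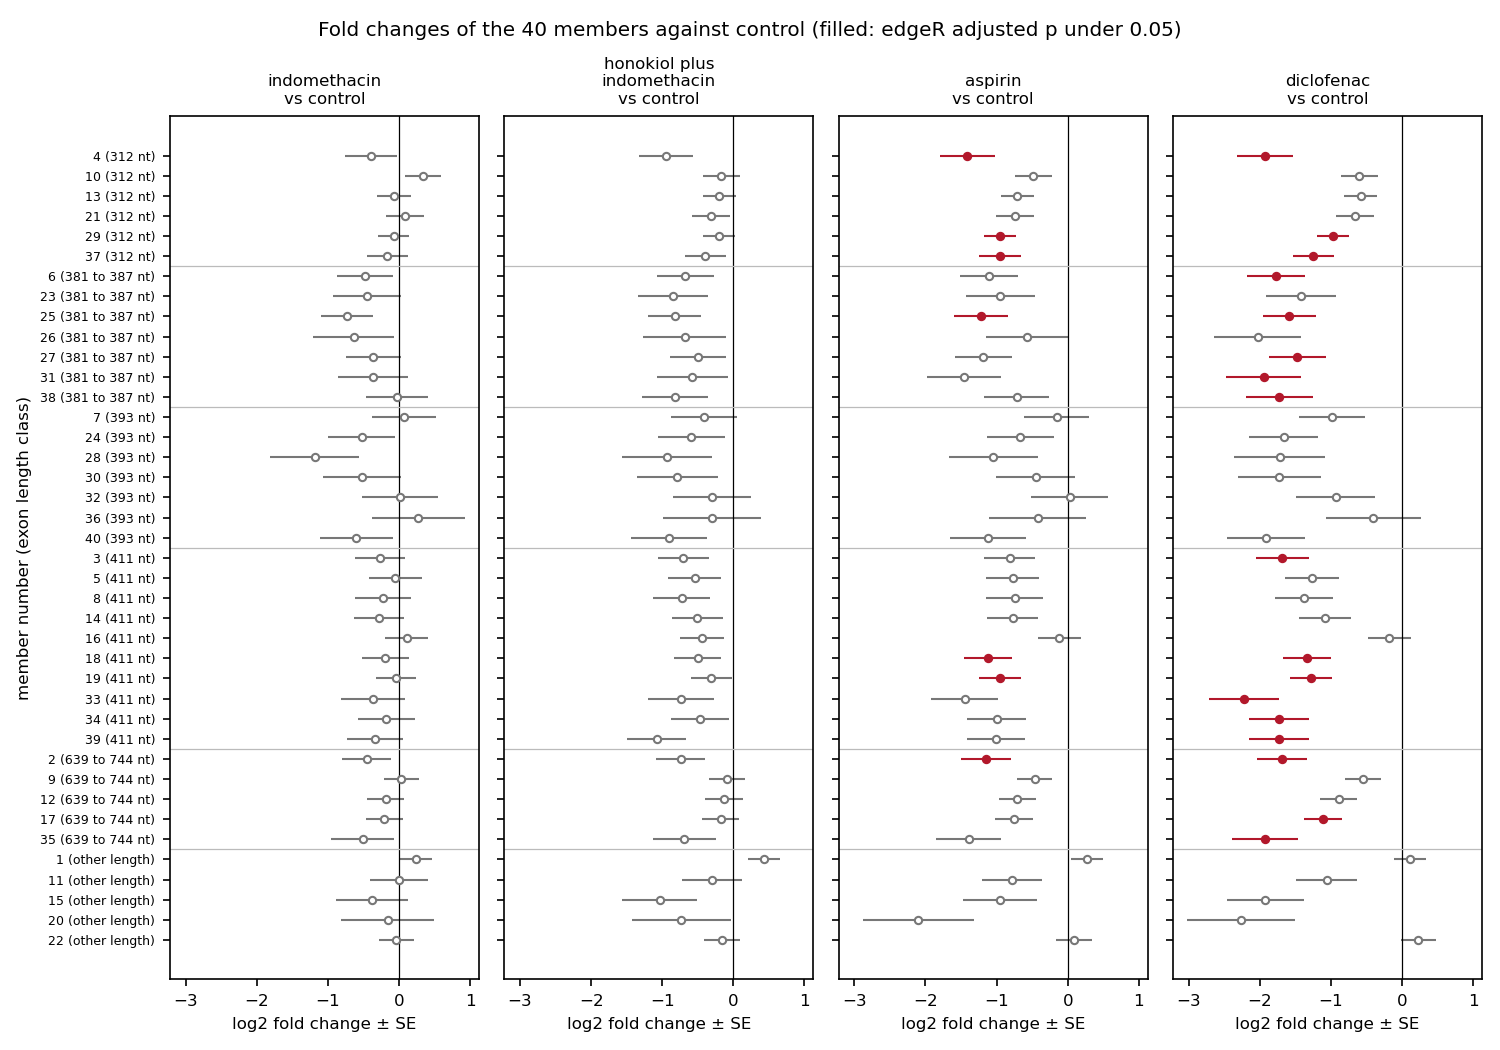
Log2 fold change against control with its standard error for the 40 members, in 4 panels for indomethacin, honokiol plus indomethacin, aspirin and diclofenac, ordered by exon length class. Filled red points passed an edgeR adjusted p under 0.05, which held for 7 members with aspirin and 17 with diclofenac. The 4 comparisons share the same 2 controls.

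Indomethacin gave a different picture, with 0 of 40 members called either way by edgeR, 0 at an unadjusted p under 0.05 and 0 by DESeq2, where 0.0245% of tested genes were called lower and 0.752% higher, and 2.83% were lower at an unadjusted p under 0.05. The median log2 fold change was -0.20, against -0.02 over the genes tested, 32 of 40 lay below 0, and single members ran from -1.19 to 0.34. Without control 1 the direction turned, to a median of 0.39 with 6 of 40 below 0, and without control 2 the median was -0.57. Both indomethacin libraries were below both controls in 2 members, against 18.2% of tested genes. For honokiol plus indomethacin, edgeR and DESeq2 called 0 of 40 members against control, and 0.0% of tested genes were called lower. At an unadjusted p under 0.05 there were 3 members, numbers 4, 25 and 39, against 1.99% of tested genes, and the median was -0.52 with 39 of 40 below 0. Without control 1 the median turned to 0.09 with 16 of 40 below 0, without control 2 it was -1.003, and without honokiol 1 it was -0.34. Both of these libraries were below both controls in 7 members, against 19.4% of tested genes. Few genes of any kind were called in these comparisons, so the missing calls do not show that the members were at the control level.

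Against indomethacin alone, the honokiol group gave 0 calls by edgeR, 0 at an unadjusted p under 0.05 and 0 by DESeq2, at a median of -0.29. Among tested genes 0.3% were called lower and 0.0428% higher, and 5.72% were lower at an unadjusted p under 0.05. Both honokiol libraries were below both indomethacin libraries in 17 members, against 23.6% of tested genes. The drugs were given at different doses, so their levels stand side by side without a statement about potency. Aspirin against indomethacin gave 0 calls by edgeR, 10 members at an unadjusted p under 0.05, 1 call by DESeq2 and a median of -0.63. Among tested genes 0.0184% were called lower by edgeR and 1.27% by DESeq2, and 10.1% were lower at an unadjusted p under 0.05. Both aspirin libraries were below both indomethacin libraries in 25 members, against 28.3% of tested genes. Diclofenac against indomethacin gave 0 calls by edgeR, 31 members at an unadjusted p under 0.05, 2 calls by DESeq2 and a median of -1.12. Here too 0.0184% of tested genes were called lower by edgeR, with 0.604% by DESeq2, and 6.85% were lower at an unadjusted p under 0.05. In this last comparison, which uses neither control, both diclofenac libraries lay below both indomethacin libraries in 36 of 40 members, against 25.1% of tested genes. Aspirin against diclofenac gave 0 calls by edgeR and 0 by DESeq2, at a median of 0.48, with 0.0% of tested genes called either way. Members 3 and 26 were higher with aspirin at an unadjusted p under 0.05, against 3.16% of tested genes, and both aspirin libraries lay above both diclofenac libraries in 14 members, against 18.3%. No single member was therefore shown to differ between these 2 drugs.

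The H4-length members include 5 that were named for a high level or for calls with both drugs. Histone H4 is the most conserved core histone and pairs with H3 in the nucleosome. Member 21, at chr17:43821225-43821536 on the minus strand, had 61.1 and 41.4 CPM in control, 53.8 and 54.5 with indomethacin, 44.4 and 38.2 in the honokiol group, 28.5 and 32.7 with aspirin, and 23.9 and 40.7 with diclofenac. The 4 aspirin and diclofenac libraries lay below both controls, but diclofenac 2 only just. Its log2 fold change was -0.74 ± 0.27 (SE) with aspirin and -0.67 ± 0.27 with diclofenac, at edgeR adjusted p of 0.072 and 0.14, and -0.40 and -0.33 without control 1. Member 13, at chr17:43770250-43770561 on the minus strand, had 35.7 and 23.9 CPM in control, 26.9 and 29.8 with indomethacin, 23.2 and 28.8 in the honokiol group, 17.8 and 18.7 with aspirin, and 16.8 and 22.9 with diclofenac. Aspirin and diclofenac libraries again lay below both controls, at log2 fold changes of -0.71 ± 0.24 and -0.58 ± 0.24 and edgeR adjusted p of 0.059 and 0.14. Without control 1 these were -0.35 and -0.23.

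Member 29 (ENSRNOG00000058444, chr17:44744591-44744902, minus strand) fell with both drugs and had the smallest adjusted p of the members with aspirin. It had 28.8 and 19.6 CPM in control, 23.6 and 22.2 with indomethacin, 19.9 and 22.3 in the honokiol group, 12.9 and 12.1 with aspirin, and 10.5 and 14.1 with diclofenac. The 4 aspirin and diclofenac libraries lay below the other 6. It fell by 0.95 ± 0.23 (SE) on the log2 scale with aspirin and by 0.98 ± 0.23 with diclofenac, at edgeR adjusted p of 0.021 and 0.026. Without control 1 the values were -0.61 and -0.64, at adjusted p of 0.14 and 0.19.

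Member 4 (ENSRNOG00000048215, chr17:43617247-43617558, plus strand) had the smallest adjusted p of the members with diclofenac. Its levels were 9.88 and 4.71 CPM in control, 5.27 and 5.86 with indomethacin, 3.37 and 4.23 in the honokiol group, 3.46 and 2.08 with aspirin, and 2.40 and 1.43 with diclofenac. Control 1 was 2.1 times control 2, and the aspirin and diclofenac libraries lay below both, with aspirin 1 close to the honokiol libraries. It fell by 1.41 ± 0.38 with aspirin and by 1.93 ± 0.39 with diclofenac, at edgeR adjusted p of 0.031 and 0.016, and neither call was made without control 1, at -0.74 and -1.26. Member 37, at chr17:44815684-44815995 on the minus strand, had 13.3 and 7.51 CPM in control, 9.73 and 8.84 with indomethacin, 8.68 and 7.18 in the honokiol group, 6.33 and 4.50 with aspirin, and 3.70 and 5.09 with diclofenac. The 4 aspirin and diclofenac libraries were the lowest, and it fell by 0.95 ± 0.29 and 1.25 ± 0.29 (edgeR adjusted p 0.045 and 0.028). Without control 1 it had -0.45 and -0.74 and neither call.

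Histone H3 carries much of the lysine methylation and acetylation that marks active and silent chromatin. Of its 10 length-matched members, number 18 at chr17:43807130-43807540 on the minus strand had the highest level. It measured 24.6 and 11.0 CPM in control, 14.9 and 16.3 with indomethacin, 10.2 and 15 in the honokiol group, 8.76 and 7.60 with aspirin, and 6.24 and 7.88 with diclofenac. Both drug groups lay below both controls, and control 2 lay among the indomethacin and honokiol values. It fell by 1.12 ± 0.33 with aspirin and by 1.33 ± 0.34 with diclofenac (edgeR adjusted p 0.042 and 0.036). Without control 1 it had -0.39 and -0.61 and neither call.

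Member 5, at chr17:43626128-43626538 on the minus strand, is the second H3-length member by level and was called in neither comparison. It had 15.6 and 6.61 CPM in control, 9.98 and 11.5 with indomethacin, 6.48 and 8.79 in the honokiol group, 8.21 and 4.88 with aspirin, and 4.99 and 4.26 with diclofenac. Aspirin 1 lay above control 2, so those groups overlapped, and the diclofenac libraries lay below both controls. Its log2 fold change was -0.78 ± 0.37 with aspirin and -1.27 ± 0.38 with diclofenac (edgeR adjusted p 0.16 and 0.065), and these were 0.01 and -0.48 without control 1. Member 19, at chr17:43814773-43815183 on the minus strand, differed little between the controls, with 5.05 and 3.81 CPM. It had 4.04 and 4.57 CPM with indomethacin, 3.43 and 3.70 in the honokiol group, 2.87 and 1.75 with aspirin, and 1.59 and 2.07 with diclofenac. The 4 aspirin and diclofenac libraries were the lowest of the 10, and it fell by 0.95 ± 0.29 and 1.28 ± 0.29 (edgeR adjusted p 0.046 and 0.027). Without control 1 it had -0.70 and -1.02 and neither call.

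Histone H2B pairs with H2A to form the dimers on each face of the nucleosome. The H2B-length member 6, at chr17:43627930-43628310 on the plus strand, had 12.4 and 5.74 CPM in control, 5.41 and 7.63 with indomethacin, 4.70 and 6.70 in the honokiol group, 5.70 and 2.84 with aspirin, and 2.86 and 2.45 with diclofenac. Aspirin 1 was nearly level with control 2, while both diclofenac libraries were well below. It fell by 1.77 ± 0.41 with diclofenac (edgeR adjusted p 0.03), and its log2 fold change with aspirin was -1.10 ± 0.41 at an edgeR adjusted p of 0.08. Without control 1 these were -1.08 and -0.41, with no call. Member 25, at chr17:44527421-44527801 on the minus strand, had 8.40 and 3.74 CPM in control, 3.68 and 3.62 with indomethacin, 3.63 and 3.22 in the honokiol group, 3.27 and 1.99 with aspirin, and 2.38 and 1.67 with diclofenac. Control 1 stood apart, and control 2 was nearly level with the indomethacin and honokiol libraries. It fell by 1.22 ± 0.38 with aspirin and by 1.58 ± 0.38 with diclofenac (edgeR adjusted p 0.045 and 0.03), and without control 1 the values were -0.48 and -0.85.

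The H2A-length members had the lowest measured level of the histone-length classes and none was called. All but member 24 overlap an antisense row, and whether this lowered their counts was not tested. Member 7, at chr17:43632397-43632789 on the plus strand, had 4.01 and 1.57 CPM in control, 2.15 and 3.73 with indomethacin, 1.52 and 2.69 in the honokiol group, 3.05 and 2.01 with aspirin, and 1.5 and 1.33 with diclofenac. Both aspirin libraries lay between the controls, and both diclofenac libraries lay just below control 2. Its log2 fold change was -0.15 ± 0.46 with aspirin and -0.98 ± 0.47 with diclofenac (edgeR adjusted p 0.83 and 0.2), and these were 0.71 and -0.12 without control 1. Member 24, at chr17:44520537-44520929 on the plus strand, had 3.41 and 1.57 CPM in control, 1.48 and 1.98 with indomethacin, 1.23 and 2.1 in the honokiol group, 1.91 and 1.25 with aspirin, and 1.07 and 0.50 with diclofenac. Its diclofenac libraries were the lowest 2 of the 10, at a log2 fold change of -1.66 ± 0.49 and an edgeR adjusted p of 0.059, and -0.97 without control 1. With aspirin it was -0.67 ± 0.47 (edgeR adjusted p 0.33) and 0.04 without control 1.

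Linker histones fold nucleosome arrays into compact fibres, and their genes are the longest of the cluster. The H1-length member 9, at chr17:43639749-43640387 on the minus strand, had the highest CPM of the members, with 84.8 and 59.4 in control, 71.7 and 75.9 with indomethacin, 73.3 and 62.6 in the honokiol group, 51.4 and 53.1 with aspirin, and 38.8 and 60.0 with diclofenac. The aspirin libraries lay below both controls and the diclofenac libraries on either side of control 2. The log2 fold change of member 9 was -0.46 ± 0.25 with aspirin and -0.54 ± 0.25 with diclofenac (edgeR adjusted p 0.2 and 0.19), and -0.15 and -0.23 without control 1. Member 12, at chr17:43734461-43735120 on the plus strand, had 79.0 and 45.2 CPM in control, 55.8 and 53.4 with indomethacin, 57.3 and 56.1 in the honokiol group, 39.9 and 36.2 with aspirin, and 28.1 and 38.9 with diclofenac. The aspirin and diclofenac libraries were the 4 lowest, at log2 fold changes of -0.71 ± 0.26 and -0.89 ± 0.26 (edgeR adjusted p 0.078 and 0.06). Without control 1 these were -0.21 and -0.40.

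Member 2, at chr17:43614101-43614844 on the minus strand, is the longest of the H1-length members and lies at the edge of the second stretch. It had 12.4 and 5.41 CPM in control, 6.55 and 6.45 with indomethacin, 5.08 and 5.58 in the honokiol group, 4.75 and 3.31 with aspirin, and 3.22 and 2.31 with diclofenac. Aspirin and diclofenac libraries were the 4 lowest, and it fell by 1.15 ± 0.35 and 1.69 ± 0.35 (edgeR adjusted p 0.044 and 0.019). Without control 1 these values were -0.40 and -0.94.

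The abundant members had smaller fold changes with diclofenac than the scarce ones. The 4 members with a mean of 20 CPM or more had a median of -0.62 and no call, the 13 members of 5 to 20 CPM had -1.10 and 7 calls, and the 17 members of 1 to 5 CPM had -1.66 and 9 calls. The 6 members under 1 CPM had -1.73 and 1 call. With aspirin the medians were -0.71, -0.78, -0.95 and -0.79. Over the 40 members, Spearman's rho between the mean level per kb and the log2 fold change was 0.505 with diclofenac and 0.127 with aspirin, as a description of values that share the same libraries. In the 4 most abundant members, control 1 was 1.43 to 1.75 times control 2. The median ratio was 2.34 in the members of 1 to 5 CPM, but 1.499 in the 6 members under 1 CPM. The gap between the controls therefore did not grow steadily as the level fell. Spearman's rho between the mean level per kb and the log2 ratio of control 1 to control 2 was -0.232.

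The calls were spread over the cluster. The stretch of members 2 to 21 held 7 of the 17 calls with diclofenac and had a median of -1.19, the stretch of 22 to 26 held 1 and had -1.58, and that of 27 to 40 held 9 of its 14 members and had -1.73. With aspirin these stretches held 4, 1 and 2 calls.

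The 5 members of other length did not move as one. Members 11, 15 and 20 had log2 fold changes of -1.06, -1.92 and -2.26 with diclofenac, each at an unadjusted p under 0.05 and with both libraries below both controls, and none was called (edgeR adjusted p 0.14, 0.053 and 0.087). Member 20 met the count rule only through control and indomethacin, with 10 to 15 counts per library. It had 3 and 4 counts with diclofenac, so the way it was chosen favoured a lower value there. Members 1 and 22 had values above 0. The sum of the 5 was 21.0 and 16.6 CPM in control, 17 and 21.8 with indomethacin, 17.8 and 20.3 in the honokiol group, 19.6 and 17.1 with aspirin, and 16.3 and 17.3 with diclofenac, so each drug group overlapped the controls. Most of that sum came from members 1 and 22. Member 1, the 106-nt row, had 9.47 and 7.18 CPM in control, 8.64 and 11.0 with indomethacin, 10.4 and 12.1 in the honokiol group, 10.6 and 9.56 with aspirin, and 7.89 and 10.1 with diclofenac. Every aspirin and honokiol library lay above both controls, and the diclofenac libraries lay on either side of control 1. Its log2 fold change was 0.27 ± 0.22 with aspirin and 0.11 ± 0.22 with diclofenac (edgeR adjusted p 0.4 and 0.79), and 0.52 and 0.36 without control 1. It shares 91 of its bases with a 27-exon gene on the same strand, which itself rose with both drugs, so reads of these rows cannot be told apart.

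Members 1 and 22 were the 2 members with a positive value with diclofenac. Member 22, the 1625-nt row at chr17:44418972-44420596, had 4.04 and 6.25 CPM in control and 6.51 and 5.52 with diclofenac, and was the only member with control 1 as its lowest library. With diclofenac its log2 fold change was 0.23 ± 0.25 (edgeR adjusted p 0.59).

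Core histone genes often stand head to head and share the DNA between them, most commonly as an H2A and H2B pair. Among the members, 5 such pairs had starts under 1000 nt apart: 14 and 15, 23 and 24, 25 and 26, 27 and 28, and 30 and 31. In 3 of them, 23 and 24, 27 and 28, and 30 and 31, a 381-nt member faced a 393-nt member at a gap of 293 to 312 nt, and members 25 and 26, of 381 and 387 nt, were 323 nt apart. The partners did not have equal levels. Per kb, member 25 stood 3.35 to 10.2 times above member 26 and member 27 stood 5.97 to 24.5 times above member 28. The ratio of member 30 to member 31 ran from 0.308 to 1.10, and that of member 23 to member 24 from 0.615 to 1.13, so these partners were closer in level.

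With diclofenac the partners' log2 fold changes stood side by side at -1.42 ± 0.49 and -1.66 ± 0.49 for members 23 and 24, -1.58 ± 0.38 and -2.03 ± 0.61 for 25 and 26, -1.47 ± 0.40 and -1.72 ± 0.64 for 27 and 28, and -1.73 ± 0.58 and -1.95 ± 0.53 for 30 and 31. Within each of these 4 pairs they differed by less than 1 standard error of the less precise partner. Members 14 and 15 stood further apart, at -1.08 ± 0.36 and -1.92 ± 0.54. Of the 8 in the first 4 pairs, members 25, 27 and 31 fell (edgeR adjusted p 0.03, 0.046 and 0.046). Their aspirin values were less alike in members 30 and 31, at -0.45 and -1.46. Differences between partners were not tested.

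**Figure D4:**
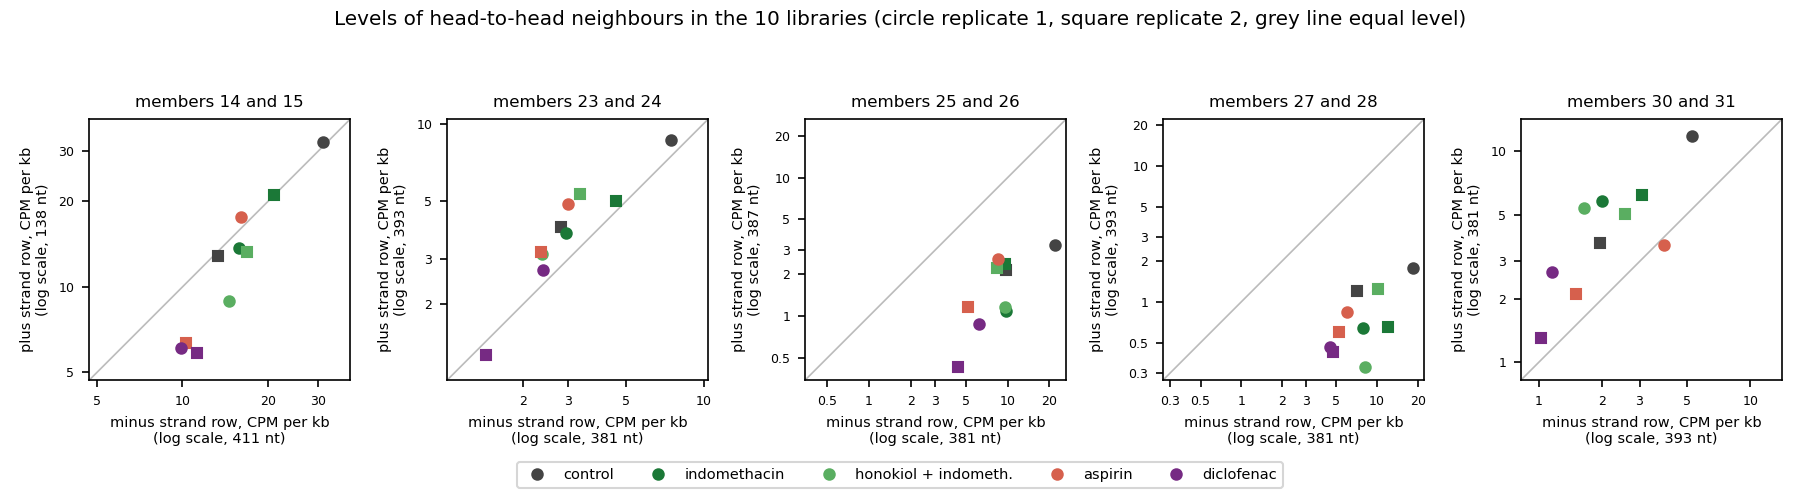
Levels per kb of the 5 head-to-head pairs in the 10 libraries, minus-strand partner on the horizontal and plus-strand partner on the vertical axis, both on log scales. Circles are replicate 1 and squares replicate 2, and the grey line marks equal levels. Points of members 25 and 26 and of 27 and 28 lie below the line in each library.

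Antisense rows overlapped 7 members by 137 to 142 nt, and these rows had 0 counts in all 10 libraries. The members concerned were 7, 28, 30, 32, 36 and 40, of H2A length, and member 26, of 387 nt. Members 32 to 35 lie inside introns of a 4-exon row on the opposite strand at chr17:44756555-44793927, with no shared exon base.

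The members stood beside other sets of genes as follows, with no test of a difference between sets. Over 27 multi-exon genes of the same window, diclofenac gave 4 lower and 1 higher call at a median of -0.32, and aspirin gave 6 lower and 1 higher at -0.29. Over 432 tested single-exon genes of 300 to 800 nt outside the window, diclofenac gave 7 lower and 7 higher calls at a median of -0.11, and aspirin gave 36 lower and 11 higher at -0.17. Over 29 genes elsewhere with exactly the lengths 312, 381, 393 or 411 nt, diclofenac gave 1 lower and 2 higher calls at a median of 0.06, and aspirin gave 2 and 2 at 0.24. The members' medians of -1.40 with diclofenac and -0.80 with aspirin were lower than each of these. The share called lower with aspirin was nevertheless larger in the window's multi-exon genes, at 22.2%, than in the members, at 17.5%. With diclofenac these shares were 14.8% and 42.5%.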

How the data were processed

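Counts per gene were deposited by the authors for 10 libraries, and their columns follow the featureCounts layout per the file headers. The libraries were stranded, paired-end and made from ribosome-depleted RNA per the labels' protocols. Reads were handled with featureCounts, HISAT2 2.1.0, cutadapt 1.16, SAMtools, FastQC 0.11.7, DESeq2 and bcl2fastq, per the submitters' processing notes. For genome build, strand setting and multiply matching reads, the details were not given in the sources used here. Histone copies may therefore share reads, and antisense reads cannot be told apart. Coordinates are those of the files. Empty closing lines were skipped.

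Group-only edgeR 4.0.16 fits (R 4.3.3; TMM, filterByExpr with minimum count 10, robust quasi-likelihood F test) covered the 10 libraries, 16346 genes and 5 residual degrees of freedom. All 40 members were tested. A call means a p under 0.05 after Benjamini-Hochberg adjustment over these genes. Standard errors are the log2 fold change divided by the square root of F. The procedure was tested on simulated counts. Alternatives were RLE factors, TMM from multi-exon nuclear rows, 2 other filters, DESeq2 1.42.0, a replicate block, a Y-count term, fewer groups, and each library left out.

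The members and lists were chosen with earlier results of these data known. Printed with the value in each library are the 2 highest members of each length class, those called in 2 or more comparisons with control, and those moving against the members' median with all 3 drugs (member 1). Other members and rows were picked out after their values were seen. As 0 of 32623 identifiers matched a name, the lists of histone, replication, mitosis and tissue marker genes could not be applied, and the tissue label was not checked by markers. At most 2 identifiers that fell are printed, and no sequence.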

Additional observations from a re-analysis of the deposited data

How the results depend on the processing

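With 1 library left out, 36 to 39 of 40 members lay below 0 with diclofenac and 30 to 38 with aspirin. Without control 1 only 6 did with indomethacin (32 in the fit reported) and 16 with honokiol plus indomethacin (39), and 0 were called in both. With diclofenac, 17 members were called lower in the fit reported, 27 without the low-count filter, 0 with the Y-count term, 0 with only the groups compared, and 0 to 27 when single libraries were left out. With aspirin, 7 were called, 4 with TMM from multi-exon nuclear rows, 20 without the low-count filter, 4 with a minimum of 1 CPM in 2 libraries, 13 with DESeq2, 0 with the Y-count term, 2 with only the groups compared, and 0 to 18 when single libraries were left out. DESeq2 called 25 with diclofenac. Among tested genes, the shares called lower with diclofenac were 4.12% without the low-count filter and 4.5% by DESeq2. They were 0.63% with the Y-count term and 0.663% with only the groups compared. With aspirin they were 7.66% with TMM from multi-exon nuclear rows, 7.18% without the low-count filter and 9.37% with the 1 CPM minimum. They were 9.35% by DESeq2, 1.22% with the Y-count term and 3.14% with only the groups compared. A fit of the 6 libraries without Y counts, chosen after seeing the data, called 0 with either drug, with 1 control left whose spread was assumed to be like that of the other groups. Against indomethacin, aspirin gave 0 calls in the fit reported, 8 without the low-count filter and 1 with DESeq2, and diclofenac gave 0, 19 without the filter, 2 with DESeq2 and 2 with only the groups compared. In these fits against indomethacin, 2.38% of tested genes were called lower with aspirin without the filter and 1.27% by DESeq2. With diclofenac the shares were 2.05% without the filter, 0.604% by DESeq2 and 0.286% with only the groups compared. The causes of these shifts were not tested. Among the members described singly, log2 fold changes with aspirin that changed sign were those of member 5 (0.01 without control 1 and in the 6 libraries, range -1.235 to 0.01 when single libraries were left out), member 7 (0.016 with the Y-count term, 0.714 without control 1, 0.12 without aspirin 2, 0.713 in the 6 libraries, range -0.642 to 0.714) and member 24 (0.035 without control 1 and in the 6 libraries, range -1.088 to 0.035). With diclofenac, among the same members, member 1 changed sign without control 2 (-0.046) and without diclofenac 2 (-0.079), range -0.079 to 0.358. Same-numbered replicates did not pair across all groups: the correlations of their deviations ran from -0.26 to 0.30 over 10 pairs of groups. They were 0.13 for control and indomethacin, 0.30 for control and honokiol, and 0.14 for indomethacin and honokiol. Between aspirin and diclofenac it was 0.22, and each correlation of these 2 drug groups with the other groups was negative. The cause of this split was not tested. A fit with the replicate number as a block called 14 members with diclofenac and 5 with aspirin, and 0 in the other comparisons. The scarcest members, under 1 CPM, had 1 call with diclofenac and 0 with aspirin, at standard errors with diclofenac of 0.42 to 0.76. Among them, member 36 also had a small log2 fold change with diclofenac, at -0.41 ± 0.67.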

Other observations

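Outside the members, 7 single-exon genes of 381, 393 or 411 nt lay together on chromosome 2 between 198359754 and 198418029. None of the 7 was called against control with indomethacin, aspirin or diclofenac. Their log2 fold changes with diclofenac ran from -1.25 to 0.20. The lowest was that of the 381-nt gene at position 198360998, at -1.25 ± 0.46 (edgeR adjusted p 0.11). That gene had 1.26 and 1.34 CPM in control, 1.29 and 0.57 after aspirin, and 0.61 and 0.48 after diclofenac. The 393-nt gene at position 198381798 had 21.4 and 16.6 CPM in control, 25.7 and 18.8 after aspirin, and 14.8 and 16.6 after diclofenac, so the aspirin libraries overlapped the controls. Its log2 fold change was 0.23 ± 0.45 (SE) with aspirin and -0.28 ± 0.45 with diclofenac (edgeR adjusted p 0.74 and 0.73). The 411-nt gene at position 198417619 had -0.02 ± 0.28 with aspirin and -0.43 ± 0.28 with diclofenac (edgeR adjusted p 0.96 and 0.35).

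On chromosome X, a 393-nt gene at position 42328840 fell with both drugs. It had 7.20 and 5.14 CPM in control, 2.21 and 2.89 after aspirin, and 2.95 and 2.48 after diclofenac. It fell by 1.27 ± 0.27 and 1.19 ± 0.27 (edgeR adjusted p 0.014 and 0.024). Its 2 control libraries lay closer together than those of most members.

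On chromosome 14, 2 genes of 411 nt rose with both drugs. The gene at position 46588406 had 121 and 80.2 CPM in control, 1278 and 827 after aspirin, and 968 and 308 after diclofenac. It rose by 3.39 ± 0.51 with aspirin and by 2.67 ± 0.49 with diclofenac (edgeR adjusted p 0.005 and 0.012).

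In the chromosome 17 window, a row left out for its 3 listed exons spans 381 bases from 43808673 to 43809053, of which 378 are exonic. It had 19.96 and 9.59 CPM in control, 9.04 and 12.1 after indomethacin, 8.48 and 9.28 in the honokiol group, 8.24 and 6.13 after aspirin, and 7.85 and 5.40 after diclofenac. Both drug groups lay below both controls, at a log2 fold change of -1.04 ± 0.33 for aspirin and -1.16 ± 0.33 for diclofenac (edgeR adjusted p 0.051 and 0.056).

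The 4-exon row at chr17:44756555-44793927, whose introns hold members 32 to 35 on the other strand, had 17.6 and 7.31 CPM in control and 4.58 and 3.02 with diclofenac. It fell by 1.71 ± 0.43 with diclofenac (edgeR adjusted p 0.041). The 27-exon gene at chr17:42324594-42422053 rose by 1.45 ± 0.22 with aspirin and by 1.32 ± 0.22 with diclofenac (edgeR adjusted p 0.0049 and 0.0068). These rows were picked out after their values were seen.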
